A study of Mus musculus with 9 samples.

Results

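The collagen genes of cultured mouse synovial fibroblasts (SFs) are described here. Members were the protein-coding genes whose symbol is Col, a collagen type number, the letter a and a chain number, and 44 of the 49548 genes in the deposited tables met this rule. They comprised 11 fibrillar, 6 basement membrane and 9 FACIT chains, with 18 others, of which 6 were type VI chains of beaded filaments, 3 were chains of hexagonal networks, 1 was the anchoring fibril chain Col7a1, 2 were multiplexins, 4 were transmembrane collagens and 2 were neither. FACIT stands for fibril-associated collagens with interrupted helices.

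SFs came from the ankles of CBA C57BL/6J mice aged 8 weeks that were WT or carried a human TNF transgene (hTNFtg), and at passage 1 CD45+ cells were depleted. The 9 libraries of 3′ mRNA sequencing were 3 of WT SFs, 3 of hTNFtg SFs and 3 of hTNFtg SFs exposed to infliximab, an antibody against human TNF, at 1 µg/mL for 48 hours. By the labels the other 6 libraries had no treatment, and by the methods their cells received vehicle. No WT SFs with infliximab were part of the libraries used here, and the transgene, a human sequence, was not analysed here. The comparisons asked which collagen genes differed in hTNFtg from WT SFs, and which differed after TNF was neutralized.

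Collagens are secreted proteins of intertwined chains that give connective tissue its strength. Fibrillar types I, III and V build the fibers of the synovial lining and capsule, type IV forms the sheet of basement membranes, FACITs decorate the surface of fibers, and type VI filaments lie around cells. Cartilage is built on types II, IX and XI, and fibroblasts are the main collagen source of the synovium.

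All values are normalized counts, that is, reads per gene scaled by the authors for the depth of each library. Because 3′ sequencing gives about 1 read per transcript whatever its length, levels of different genes were set side by side without a length correction. The libraries held approximately 3829149 to 9015652 reads, except hTNFtg replicate 1 with 613343, where a read was worth 6.23 normalized counts against 0.534 to 1.10 elsewhere. Values of up to 18.7 in this library are 3 reads or fewer. Genes typical of hepatocytes summed to 750 in infliximab replicate 3 and to 11 to 44 in the other libraries, with Alb alone at 265. Differences were tested with limma on log2(normalized count + 1), and a gene was called when its unadjusted P was under 0.05 and its absolute log2 fold change at least 1, as in the methods. The samples are named biological replicates, and with 3 libraries per group an exact permutation test of a single value cannot go below P = 0.1.

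The labelled cell type was checked against 9 fibroblast markers, whose summed level lay between 9605 and 13363 in WT, 11802 and 13188 in hTNFtg and 9705 and 10359 in infliximab-treated libraries. Of these, Pdpn was raised in hTNFtg SFs with a log2 fold change of 2.01 ± 0.42. Its protein marked both lining and sublining SFs in the sorting of the study. The proteoglycan gene Lum was lowered with -1.69 ± 0.46. Vim, Thy1, Pdgfra, Dcn and Prg4 were above 0 in all 9 libraries. The pan-endothelial markers Pecam1 and Cdh5 were at 0 to 3.

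Type I collagen dominated the family. Col1a1 was at 17585, 16872 and 23868 in WT replicates 1, 2 and 3, at 16542, 14635 and 15589 in hTNFtg, and at 12251, 15004 and 14395 with infliximab. Its partner Col1a2 was at 12442, 12940 and 13288, then 12799, 7863 and 8824, then 9958, 8659 and 13636. Both chains together held 60.5% to 65.9% of all collagen counts in WT, 56.0% to 58.8% in hTNFtg and 54.7% to 56.9% in infliximab-treated SFs, so the WT range lay above the others. All 44 genes together held 1.13%, 1.07% and 1.30% of the WT libraries, 1.37%, 0.958% and 0.863% of the hTNFtg libraries and 0.945%, 1.05% and 1.18% of the infliximab libraries, and these ranges overlapped. Between genes the level fell off steeply, with 8 members at a mean of 1000 or more, 12 between 100 and 1000, 7 between 10 and 100, and 17 under 10. Of the 44, 29 were above 0 in every library and 6 (Col19a1, Col25a1, Col6a4, Col17a1, Col6a5 and Col26a1) did not rise above the worth of 3 reads in any library.

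**Figure D1:**
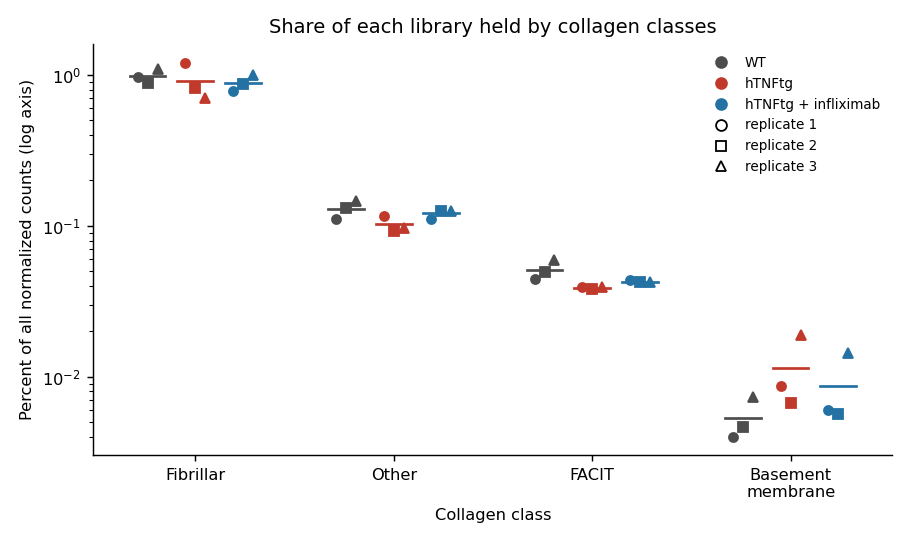
Percent of all normalized counts of a library held by fibrillar, other, FACIT and basement membrane collagens (log axis). Each point is a library, its shape gives the replicate number, and the line is the mean of 3. Fibrillar shares of the groups overlap, WT FACIT shares (0.0445% to 0.0594%) lie above those of hTNFtg (0.0382% to 0.0395%), and replicate 3 has the highest basement membrane share in each group.

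**Figure D2:**
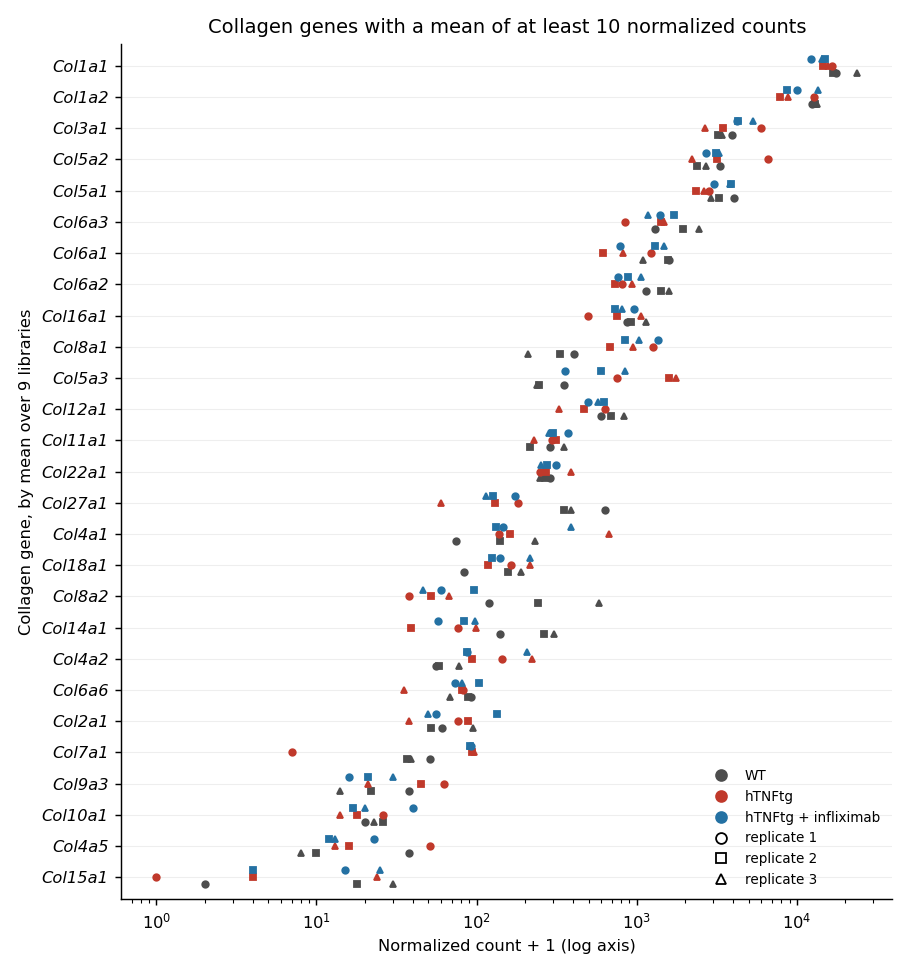
Normalized count plus 1 (log axis) of the 27 collagen genes with a mean of at least 10, ordered by mean, in each of the 9 libraries. Colors mark the groups and shapes the replicate numbers. Col5a3 and Col8a1 separate upward and Col27a1, Col8a2 and Col14a1 downward between WT and hTNFtg, while the red circle of Col7a1 is the shallow hTNFtg library.

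In hTNFtg against WT SFs, 3 of 44 collagen genes were raised (6.82%, where 3.35% of the 28522 genes tested were raised) and 5 were lowered (11.4%, against 3.04% of all genes). Among genes with a mean of at least 10 normalized counts, 4.92% were raised and 3.96% lowered, and of the 27 members at that level 3 were raised and 3 lowered. The raised genes were Col5a3, Col8a1 and Col4a2, and the lowered were Col8a2, Col27a1, Col14a1, Col9a1 and Col9a2. The genes differed in level, class and direction, and the chains of types I, III and VI were among the 36 that were not called. The median log2 fold change of the family was -0.35, and that of all genes tested was -0.0034. At a mean of at least 10 the medians were -0.29 for the 27 members and -0.068 for all genes. After Benjamini-Hochberg adjustment 1 member, Col5a3, passed in limma (0.235% of all genes were raised at that threshold), 9 had an unadjusted P under 0.05 (7.72% of all genes did), and edgeR on approximate reads gave an adjusted P under 0.05 to 7, which were the called genes other than Col4a2 (3.23% of all genes passed in edgeR). The groups did not overlap for 3 members that were higher in hTNFtg (5.63% of all genes) and 10 that were lower (5.80% of all genes), where 9.40% and 9.13% of genes with a mean of at least 10 did not overlap, and of the 27 members 3 were higher and 6 lower. Since RNA of whole cultures was sequenced, fewer cells of a kind and less RNA per cell cannot be told apart.

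**Figure D3:**
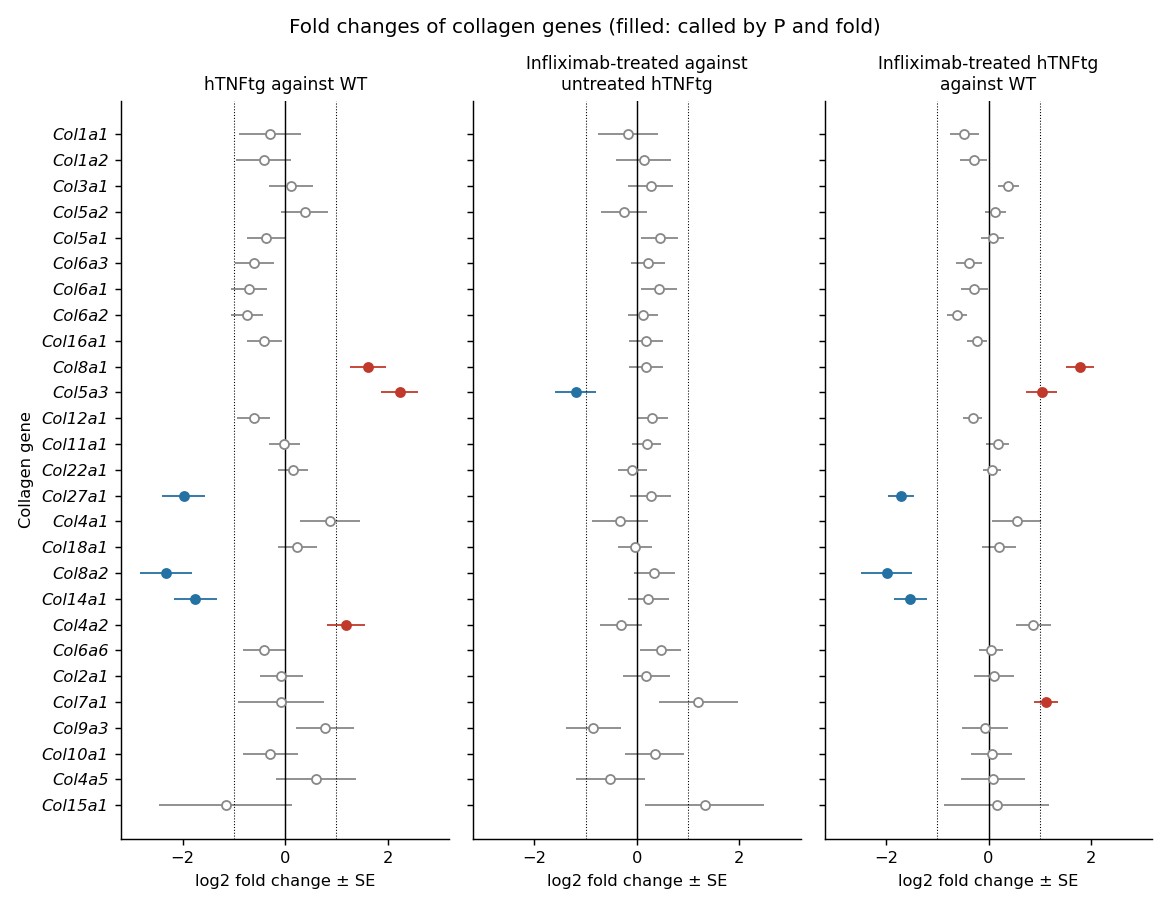
Log2 fold change with its standard error (limma, 3 against 3 libraries) of the 27 collagen genes with a mean of at least 10, in the 3 comparisons. Filled points passed the rule, dotted lines mark a log2 fold change of -1 and 1. The left and right panels share the WT libraries, and the left and middle panels share the hTNFtg libraries with opposite sign.

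To show the stretches around the starts of the genes that moved apart, the promoter windows of Col4a2, Col5a3, Col8a1 and Col8a2 were taken from RefSeq (GRCm38.p6, which is mm10), each with 250 bases before and 50 after the start. Col4a2 stands for a head-to-head pair with Col4a1, whose starts are 21 bases apart and whose windows share 78 bases, and Col8a1 and Col8a2 code for chains of 1 collagen type that moved in opposite directions. Capitals mark matches to motifs on either strand. The motifs were CCAAT (the CCAAT box), GGGCGG (the GC box bound by SP factors) and GGGRNNYYCC (the NF-kB motif in its degenerate form). In the last, R is A or G, Y is C or T and N is any base.
Col4a2 (chr8:11312555-11312854, plus strand): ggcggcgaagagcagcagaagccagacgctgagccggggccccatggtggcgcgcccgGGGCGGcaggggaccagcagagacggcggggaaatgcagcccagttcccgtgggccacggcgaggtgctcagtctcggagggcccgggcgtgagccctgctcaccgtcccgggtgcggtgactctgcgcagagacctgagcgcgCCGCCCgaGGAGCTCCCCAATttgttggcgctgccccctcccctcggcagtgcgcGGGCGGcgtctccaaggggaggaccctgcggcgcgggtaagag
Col5a3 (chr9:20815018-20815317, minus strand): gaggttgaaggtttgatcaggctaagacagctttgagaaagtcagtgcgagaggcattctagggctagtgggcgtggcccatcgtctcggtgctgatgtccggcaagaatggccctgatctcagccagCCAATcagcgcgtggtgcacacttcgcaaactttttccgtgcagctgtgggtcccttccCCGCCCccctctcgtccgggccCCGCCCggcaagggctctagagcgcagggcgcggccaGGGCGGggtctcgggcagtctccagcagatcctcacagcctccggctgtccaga
Col8a1 (chr16:57754688-57754987, minus strand): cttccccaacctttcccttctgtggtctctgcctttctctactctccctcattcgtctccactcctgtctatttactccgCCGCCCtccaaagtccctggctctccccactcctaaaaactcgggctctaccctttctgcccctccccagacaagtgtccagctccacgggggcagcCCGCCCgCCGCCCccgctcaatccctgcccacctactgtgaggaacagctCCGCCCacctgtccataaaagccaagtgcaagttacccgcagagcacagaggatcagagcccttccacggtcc
Col8a2 (chr4:126286544-126286843, plus strand): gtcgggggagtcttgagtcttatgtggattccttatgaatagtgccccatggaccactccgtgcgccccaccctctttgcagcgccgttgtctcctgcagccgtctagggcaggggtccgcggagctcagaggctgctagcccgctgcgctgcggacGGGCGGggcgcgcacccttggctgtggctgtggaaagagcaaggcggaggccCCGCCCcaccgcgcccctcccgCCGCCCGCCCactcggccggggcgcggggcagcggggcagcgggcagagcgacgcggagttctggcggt
GGGCGG was present in all 4 windows, 3 times in those of Col4a2 and Col5a3 and 4 times in those of Col8a1 and Col8a2, where a pair of the matches in Col8a2 overlap. It was found in 35.7% of the 32851 promoter windows of that length and in 22 of the 35 collagen genes that had a window. For this and the other motifs, a collagen gene counted when any of its windows matched. Shares of single windows and counts of genes are therefore unlike measures, and no excess in collagen genes is read from them. CCAAT was present once in the windows of Col4a2 and Col5a3, in 37.4% of all windows and in 13 of the 35 collagen genes. The NF-kB motif had 1 match in the printed windows, in that of Col4a2, which overlaps its CCAAT match, and was found in 8.46% of all windows and in 6 of the 35 collagen genes. Besides the raised Col4a2 these were Col27a1, Col9a1 and Col9a2, which were lowered in hTNFtg, and Col6a2 and Col6a4, which were not called. A narrower form of that motif, searched first, had no match in these 4 windows. TATAAA and TGANTCA (AP-1) were searched too and were not in these 4 windows, while 13.6% and 7.81% of all windows hold them. The windows of Col8a1 and Col8a2 are at 60.3% and 71.7% G and C. The part of any of these motifs in the change of a gene was not tested.

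Among fibrillar chains, Col5a3, a minor chain of type V collagen that joins the chains of Col5a1 and Col5a2, had the largest rise in the family. The gene lies at chr9:20770050-20815067 on the minus strand (mm10). It was at 348, 245 and 237 in WT, at 754, 1593 and 1761 in hTNFtg, and at 355, 593 and 841 with infliximab. Every hTNFtg library was above every WT library, and the infliximab libraries lay between, overlapping the lowest hTNFtg library. The log2 fold change of hTNFtg against WT was 2.23 ± 0.37 (SE; limma, adjusted P = 0.0237), and the call held in all 14 alternatives.

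The other type V chains did not move with it. Col5a1 was at 4021, 3272 and 2891 in WT, at 2821, 2356 and 2648 in hTNFtg and at 3028, 3889 and 3802 with infliximab, with a log2 fold change of -0.37 ± 0.37 in hTNFtg. Col5a2 was at 3316, 2385 and 2687, then 6627, 3175 and 2217, then 2724, 3121 and 3258, and its log2 fold change of 0.38 ± 0.46 rested on hTNFtg replicate 1 (-0.062 without it). Col5a3 amounted to 0.0865, 0.0749 and 0.0820 of Col5a1 in WT, to 0.267, 0.676 and 0.665 in hTNFtg and to 0.117, 0.152 and 0.221 with infliximab. The 3 ranges of this ratio did not overlap. Between treated and untreated hTNFtg SFs, Col5a3 itself overlapped, while Col5a1 was higher with infliximab (3028 to 3889 against 2356 to 2821), so both genes enter that gap. For a ratio of 3 against 3 libraries the smallest exact permutation P is 0.1.

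Col3a1, which makes the thin fibers laid beside type I, was at 3954, 3194 and 3395 in WT, at 5954, 3443 and 2684 in hTNFtg and at 4221, 4297 and 5291 with infliximab. Its log2 fold change in hTNFtg was 0.12 ± 0.43, and -0.20 without hTNFtg replicate 1. Those of Col1a1 and Col1a2 were -0.30 ± 0.61 and -0.42 ± 0.53, and none of the 3 was called.

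Col27a1, a fibrillar chain known from developing cartilage, fell in hTNFtg SFs. The gene is at chr4:63214004-63334991 on the plus strand. It was at 635, 352 and 388 in WT, at 181, 130 and 59 in hTNFtg and at 172, 125 and 114 with infliximab. All 6 libraries with the transgene were below all WT libraries, infliximab-treated or not. The log2 fold change in hTNFtg was -1.98 ± 0.42 (SE; limma, adjusted P = 0.0757), and the call held in all 14 alternatives.

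The fibrillar chains shared with cartilage, Col2a1 and Col11a1, were not called. Col2a1, the chain of type II collagen, was at 60, 51 and 94 in WT, 75, 88 and 37 in hTNFtg and 55, 133 and 49 with infliximab. Col11a1, which is found in type XI and in hybrid type V molecules, was at 286, 215 and 350, then 293, 314 and 226, then 370, 299 and 281. Both genes overlapped between all groups. The remaining fibrillar chains Col11a2 and Col24a1 were at 1 to 11.

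In basement membrane collagen, the common chains Col4a1 and Col4a2, which assemble into 1 molecule, were the only members of the class with a mean above 100. Col4a2, at chr8:11312805-11449287 on the plus strand, was at 55, 57 and 77 in WT, at 143, 93 and 222 in hTNFtg and at 86, 86 and 205 with infliximab. Col4a1 was at 73, 139 and 229 in WT, at 137, 160 and 666 in hTNFtg and at 145, 131 and 385 with infliximab. In each group replicate 3 was the highest for both genes. Col4a2 did not overlap between WT and hTNFtg, with a log2 fold change of 1.19 ± 0.38 (SE; limma, adjusted P = 0.299), and its call ended without hTNFtg replicate 3 (0.88) and with array quality weights (0.78).

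Col4a1 overlapped between the groups, and its log2 fold change of 0.88 ± 0.58 did not pass in limma (adjusted P = 0.726). It ran from 0.16 without hTNFtg replicate 3 to 1.29 without hTNFtg replicate 1, and edgeR called the gene raised (1.13, adjusted P = 0.0909). The ratio of Col4a1 to Col4a2 ran from 1.33 to 2.97 in WT, from 0.958 to 3.00 in hTNFtg and from 1.52 to 1.88 with infliximab, so that the ranges overlapped. The other type IV chains, which are found in specialized basement membranes such as those of the kidney, were low, with Col4a5 at 7 to 50 and Col4a3, Col4a4 and Col4a6 at 0 to 8.

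Type VIII, a short-chain collagen of hexagonal networks that is made by vessel wall and corneal cells, changed in opposite directions by chain. Col8a1, at chr16:57624258-57754737 on the minus strand, was at 405, 333 and 208 in WT, at 1271, 684 and 947 in hTNFtg and at 1359, 843 and 1025 with infliximab. Col8a2, at chr4:126286793-126314330 on the plus strand, was at 118, 242 and 580 in WT, at 37, 51 and 66 in hTNFtg and at 59, 96 and 45 with infliximab. Neither gene overlapped between WT and the other groups.

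The log2 fold change in hTNFtg was 1.62 ± 0.35 for Col8a1 (SE; limma, adjusted P = 0.0833) and -2.33 ± 0.51 for Col8a2 (adjusted P = 0.0849), and both calls held in all 14 alternatives. The ratio of Col8a1 to Col8a2 was 3.43, 1.38 and 0.359 in WT, 34.4, 13.4 and 14.3 in hTNFtg, and 23.0, 8.78 and 22.8 with infliximab. All 6 hTNFtg libraries, treated or not, were above all WT libraries. The third hexagonal network chain, Col10a1, which marks hypertrophic cartilage, was at 13 to 39 and overlapped between groups. Its last 1000 bases overlap Nt5dc1 on the opposite strand, and the sources do not say whether counting used strand.

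**Figure D4:**
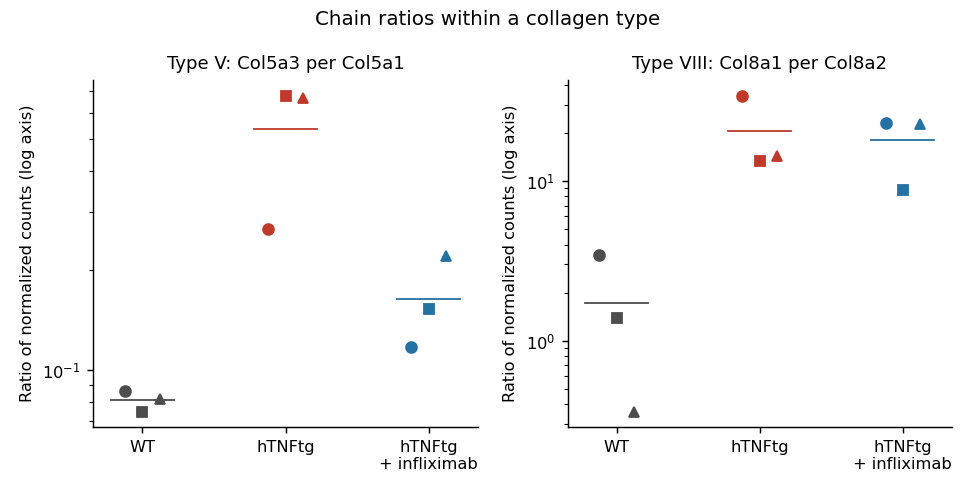
Ratio of normalized counts of Col5a3 to Col5a1 and of Col8a1 to Col8a2 in each library (log axes), with lines at the mean of 3 and circles, squares and triangles for replicates 1, 2 and 3. Infliximab libraries lie at 0.117 to 0.221 for type V, between WT and hTNFtg, and at 8.78 to 23.0 for type VIII, within or near the hTNFtg range of 13.4 to 34.4.

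Among FACITs, the 3 called members fell. Col14a1, which binds to type I fibers, lies at chr15:55307750-55520803 on the plus strand and was at 140, 261 and 303 in WT, 75, 38 and 98 in hTNFtg and 56, 83 and 97 with infliximab. Its log2 fold change in hTNFtg was -1.75 ± 0.42 (SE; limma, adjusted P = 0.128), and the call held in all 14 alternatives. Col12a1, which also sits on type I fibers, was at 594 to 831 in WT and 325 to 629 in hTNFtg, and Col16a1 was at 872 to 1136 and 492 to 1061, and neither was called.

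Col9a1 and Col9a2, chains of the cartilage collagen type IX, had means under 10 and are named after their values were seen. Col9a1 was at 1, 14 and 19 in WT, 0 in all hTNFtg libraries, and 0, 1 and 0 with infliximab. Col9a2 was at 14, 12 and 21 in WT, 0 in all hTNFtg libraries, and 7, 5 and 0 with infliximab. With hTNFtg set to the worth of 3 reads per library, Col9a1 was at least 1.49-fold and Col9a2 at least 2.06-fold lower in hTNFtg than in WT. Replicate 1 sets these limits, since 3 reads were worth 18.7 there against 2.57 and 1.60 in hTNFtg replicates 2 and 3, and they would be higher without it. The third chain, Col9a3, was at 37, 21 and 13 in WT and at 62, 44 and 20 in hTNFtg and was not called, and its last 1000 bases overlap Tcfl5 on the opposite strand.

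Of the 6 type VI chains, which form the filaments around cells, 0 were called in hTNFtg (3.35% of all genes were raised and 3.04% lowered). Their log2 fold changes were below 0 for 5 and 0 for 1. Col6a1 was at 1593, 1556 and 1086 in WT, 1227, 617 and 815 in hTNFtg and 780, 1305 and 1488 with infliximab. Col6a2 was at 1147, 1409 and 1590, then 803, 727 and 935, then 760, 886 and 1056. Col6a3 was at 1302, 1949 and 2457, then 841, 1420 and 1488, then 1400, 1716 and 1169.

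Col6a2 did not overlap between WT and the other groups, but its log2 fold changes of -0.74 ± 0.31 in hTNFtg and -0.62 ± 0.20 with infliximab stayed under the fold asked for. Those of Col6a1 and Col6a3 in hTNFtg were -0.71 ± 0.35 and -0.60 ± 0.38. Array quality weights, which lowered 4.64% of all genes, called Col6a1 lowered. Col6a6 was at 34 to 102 in the 9 libraries, and Col6a4 and Col6a5 were at 0 to 2.

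Col7a1, the anchoring fibril chain that ties epithelium to the tissue beneath, depended on the shallow library. It was at 50, 36 and 38 in WT, at 6, 92 and 95 in hTNFtg and at 91, 90 and 90 with infliximab, and the gene is at chr9:108953586-108984875 on the plus strand. The 6 in hTNFtg replicate 1 is about 1 read. The log2 fold change of hTNFtg against WT was -0.08 ± 0.84 and, without that library, 1.17, where it was called.

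**Figure D5:**
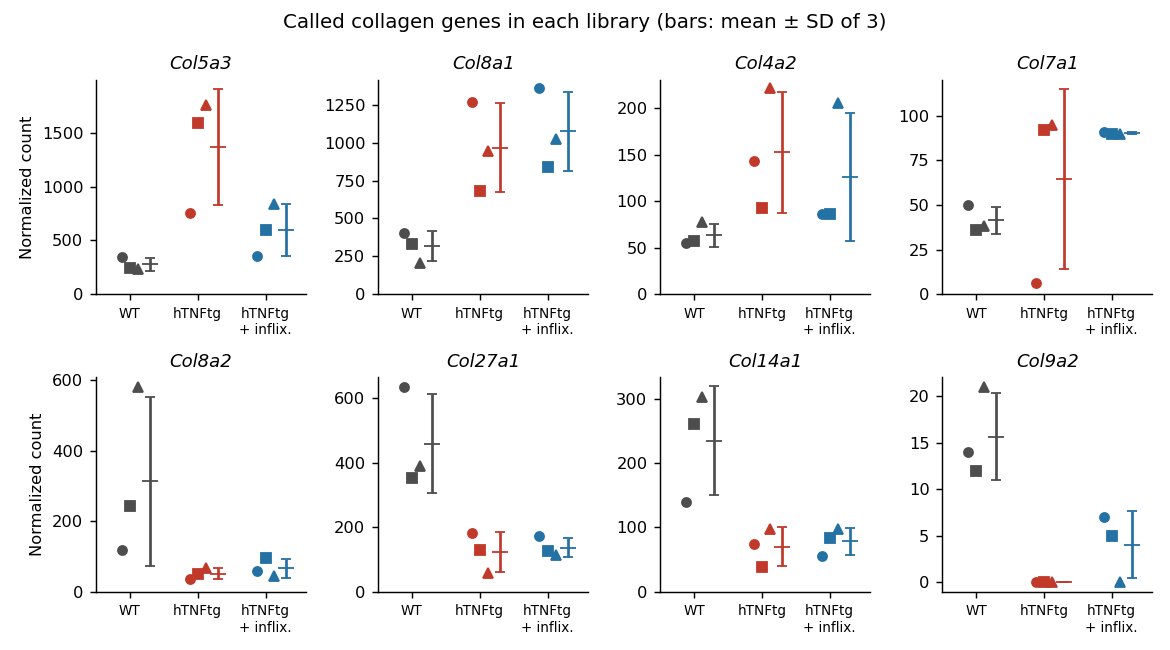
Normalized counts of 8 collagen genes called in at least 1 comparison in WT, hTNFtg and infliximab-treated hTNFtg libraries (circles, squares and triangles for replicates 1, 2 and 3), with the mean and SD of 3 beside the points. Col5a3 with infliximab (355 to 841) lies above WT (237 to 348) and overlaps the lowest hTNFtg library (754), Col8a1 and Col4a2 stay above WT, and Col8a2, Col27a1 and Col14a1 stay below WT.

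In infliximab-treated against untreated hTNFtg SFs, 1 of the 42 collagen genes tested was lowered (2.38%, against 0.936% of the 28540 genes tested) and 1 was raised (2.38%, against 1.49%). Among genes with a mean of at least 10 these shares were 0.985% and 1.81%, and of the 27 members at that level 1 was lowered and 0 were raised. Col5a3 fell, with a log2 fold change of -1.19 ± 0.40 (SE; limma, adjusted P = 0.803). Its call ended without hTNFtg replicate 2 (-1.04), without hTNFtg replicate 3 (-0.96) and without infliximab replicate 1 (-0.86) or 2 (-1.23), and ranged from -1.57 to -0.86 over all 14 alternatives. The other call was Col9a2, whose libraries held 7, 5 and 0 with infliximab, while all hTNFtg libraries were at 0. The worth of 3 reads there was 18.7, 2.57 and 1.60, and the infliximab mean is under the average of these, which replicate 1 sets, so no fold is given. The Col9a2 call was lost in 7 of 13 alternatives.

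After adjustment no collagen gene passed in limma or in edgeR, while 2 had an unadjusted P under 0.05 in each tool (3.59% of all genes in limma and 6.08% in edgeR). Across all genes limma gave 0 with an adjusted P under 0.05 and 1026 with an unadjusted P under 0.05, and edgeR gave 165 (0.578%) with an adjusted P under 0.05. The median log2 fold change of the collagen genes was 0.15. Col8a1, Col8a2, Col27a1 and Col14a1 had log2 fold changes of 0.17 ± 0.33, 0.34 ± 0.40, 0.27 ± 0.40 and 0.23 ± 0.41, and their libraries overlapped between treated and untreated hTNFtg SFs.

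In infliximab-treated hTNFtg against WT SFs, 3 of 43 collagen genes were raised (6.98%, against 3.86% of the 28243 genes tested) and 7 were lowered (16.3%, against 2.95%). Among genes with a mean of at least 10, 4.73% were raised and 3.16% lowered, and of the 27 members at that level 3 were raised and 3 lowered. Col8a1 was raised with a log2 fold change of 1.79 ± 0.27 (SE; limma, adjusted P = 0.0265), Col7a1 with 1.12 ± 0.23 (adjusted P = 0.0707) and Col5a3 with 1.04 ± 0.30 (adjusted P = 0.185). The Col5a3 call was lost in 5 of 14 alternatives and that of Col7a1 in 1, the fit of all 9 libraries. Col4a2, at 0.87 ± 0.34, stayed under the fold asked for in limma and was called in 4 of 14 alternatives (edgeR, and without WT replicate 3 or infliximab replicate 1 or 2), which ranged from 0.46 to 1.08.

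Lowered were Col27a1 at -1.71 ± 0.26 (limma, adjusted P = 0.0269), Col8a2 at -1.99 ± 0.50 (adjusted P = 0.129) and Col14a1 at -1.53 ± 0.32 (adjusted P = 0.0731), and these 3 were called in all 14 alternatives. The other 4 had means under 10 and are named after their values were seen. Of these the calls of Col9a1 and Col9a2 were each lost in 4 of 13 alternatives, both of them without WT replicate 2 and without WT replicate 3, and that of Col25a1 was lost with the pseudocount of 5 and in edgeR. Col23a1, a transmembrane collagen, was at 17, 21 and 17 in WT, 6, 6 and 7 in hTNFtg, and 0, 5 and 2 with infliximab. In hTNFtg against WT it was not called (-1.39 ± 0.64), but was in 6 of 14 alternatives. Col9a1 and Col9a2 are described above. Col25a1, another transmembrane chain, was at 0 to 2 in every library and within the worth of 3 reads.

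After adjustment 2 collagen genes, Col8a1 and Col27a1, passed in limma (0.365% of all genes were raised and 0.375% lowered at that threshold), and 9 passed in edgeR (4.67% of all genes did). This comparison shares the WT libraries with that of untreated hTNFtg SFs, so the calls that recur in both are not independent of each other. Side by side, the log2 fold changes against WT without and with infliximab were 2.23 and 1.04 for Col5a3, 1.62 and 1.79 for Col8a1, -2.33 and -1.99 for Col8a2, -1.98 and -1.71 for Col27a1 and -1.75 and -1.53 for Col14a1.

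Collagen is modified in the endoplasmic reticulum, trimmed after secretion, cross-linked, bound by receptors and broken down, and the genes for these steps were read as lists. Of 22 genes for modification and folding, 1 was raised in hTNFtg (4.55%, near the 3.35% of all genes) and 0 lowered. It was Tmem38b, which codes for a potassium channel of the endoplasmic reticulum, at 13, 12 and 15 in WT and 62, 28 and 23 in hTNFtg (log2 fold change 1.30 ± 0.55, lost in 5 of 14 alternatives). The collagen chaperone Serpinh1 was at 26711, 17515 and 12773 in WT, 6222, 12923 and 10440 in hTNFtg and 17804, 18924 and 13482 with infliximab, and its log2 fold change of -0.94 ± 0.61 was not called.

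Of 14 tested genes for processing and cross-linking, 4 were raised (28.6%, against 3.35% of all genes) and 1 lowered (7.14%, against 3.04%) in hTNFtg SFs. The lysyl oxidases Loxl2 and Loxl3, which cross-link collagen, had log2 fold changes of 1.58 ± 0.29 (limma, adjusted P = 0.044) and 1.78 ± 0.30 (adjusted P = 0.0261). Loxl3 was at 224, 320 and 244 in WT, 953, 708 and 1058 in hTNFtg and 652, 487 and 679 with infliximab. Loxl2 was at 359, 389 and 308, then 1215, 833 and 1152, then 578, 649 and 1167. For both genes all hTNFtg libraries lay above all WT libraries, with infliximab or without.

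The cross-linking transglutaminase Tgm2 (1.23 ± 0.48) and the procollagen peptidase Adamts14 (1.98 ± 0.86) were raised too, with calls lost in 5 and 7 of 14 alternatives, and Pcolce2, an enhancer of procollagen trimming, was lowered (-1.72 ± 0.50). The most abundant lysyl oxidase, Lox, was at 8682 to 27263 in the 9 libraries, overlapped between the groups and was not called. With infliximab against WT, 21.4% of the list were raised and 14.3% lowered, where 3.86% and 2.95% of all genes were. These were 3 raised (Loxl2 1.11 ± 0.26, Loxl3 1.20 ± 0.21 and Tgm2 1.22 ± 0.45, of which Loxl2 was lost in 2 and Tgm2 in 5 of 14 alternatives) and 2 lowered (Pcolce2 -1.83 ± 0.23 and Adamts3, which was at 0 to 5).

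Of 10 collagen receptors 2 were raised (20%, against 3.35% of all genes) and 1 lowered (10%, against 3.04%) in hTNFtg SFs. Itga1, a chain of the collagen-binding integrins, was lowered (-1.64 ± 0.40), and the inhibitory leukocyte receptor Lair1 (3.94 ± 0.90) and the endocytic receptor Mrc2 (1.14 ± 0.46, lost in 6 of 14 alternatives) were raised. Itga1 was at 81, 90 and 103 in WT, 19, 30 and 40 in hTNFtg and 35, 25 and 21 with infliximab, all below WT. Of 10 tested genes for breakdown 2 were raised (20%, against 3.35% of all genes) and 0 lowered. The gelatinase Mmp9 (4.35 ± 1.48) and the protease inhibitor Timp1 (1.14 ± 0.40) were raised, with calls lost in 4 and 3 of 14 alternatives, and the collagenases Mmp13 and Mmp14 were not called. Mmp9 was spread widely, at 5, 554 and 15 in WT, 143, 696 and 4533 in hTNFtg and 202, 226 and 1263 with infliximab. In infliximab-treated against untreated hTNFtg SFs none of these 4 lists held a call in limma, with 1, 0, 2 and 0 genes of 22, 14, 10 and 10 at an unadjusted P under 0.05 in the order given, against 3.59% of all genes. In edgeR on approximate reads, which lowered 2.49% of all genes, Adamts14, Mmp9 and Mmp14 were lowered there. Adamts14 and 1 of the 2 breakdown genes had an adjusted P under 0.05 in edgeR (0.578% of all genes did).

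Markers of other cells moved between the groups as well. Of 10 macrophage markers 7 were raised in hTNFtg (70%, against 3.35% of all genes) and 0 lowered, and their sum was at 192 to 658 in WT, 3062 to 6251 in hTNFtg and 1992 to 4061 with infliximab. Ptprc, which codes for CD45, was at 0, 3 and 0 in WT, 31, 9 and 12 in hTNFtg, and 28, 8 and 22 with infliximab. Lyz2 had a log2 fold change of 4.86 ± 0.58 and Cd68 of 3.03 ± 0.62. Their part in the rise of Col5a3, Col8a1, Col4a2, Lair1 and Mmp9 was not tested.

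Some cartilage and bone markers were also lowered in hTNFtg SFs. Of 11 tested chondrocyte markers 5 were lowered in hTNFtg (45.5%, against 3.04% of all genes) and 0 raised, and the sum of the list was 6419 to 9488 in WT, 516 to 1151 in hTNFtg and 879 to 2525 with infliximab. Most of it was Sox9, the master regulator of cartilage, and the matrix gene Comp (log2 fold changes -2.95 ± 0.32 and -3.42 ± 0.42), without which the sums were 261 to 295, 31 to 44 and 25 to 65. The matrix gene Matn4 had a log2 fold change of -5.43 ± 0.77. The defining marker Acan was at 16, 16 and 5 in WT and 0, 1 and 0 in hTNFtg, and Matn1 and Snorc were at 0 in all WT and hTNFtg libraries.

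Of 7 tested osteoblast markers 3 were lowered (42.9%, against 3.04% of all genes), namely Alpl (-5.85 ± 1.19), Sp7 (-5.24 ± 0.70) and Ibsp (-4.24 ± 0.87), and their list summed to 580 to 1133 in WT, 12 to 109 in hTNFtg and 58 to 224 with infliximab. Alpl was at 983, 441 and 710 in WT and at 0, 89 and 17 in hTNFtg, with the 0 in the shallow library. Its log2 fold change ran from -7.32 to -3.51 over 14 alternatives, all of which called it. Bglap and Bglap2 were at 0 to 8, and Dmp1 was at 0 in WT and hTNFtg. The part of these cells or of a change within SFs in the fall of Col27a1, Col9a1, Col9a2, Col8a2 and Col14a1 was not tested.

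In infliximab-treated against untreated hTNFtg SFs, where 1.49% of all genes were raised and 0.936% lowered, 2 of 12 tested chondrocyte markers were raised (Sox9 with a log2 fold change of 1.10 and Comp with 1.14), as were 1 of 8 osteoblast markers (Alpl, 3.22) and 1 of 8 endothelial and mural markers (Rgs5, 2.42). Of 10 macrophage markers, Itgam was lowered (-1.33). None of these 5 genes passed after adjustment in limma, and Alpl passed in edgeR (0.578% of all genes did). By the rule edgeR, which raised 1.815% and lowered 2.49% of all genes, also called Matn4 raised and Emcn lowered, without an adjusted P under 0.05. The calls were lost in 7 of 14 alternatives for Comp, 6 for Alpl, 4 for Sox9 and 2 for Itgam, and in 2 of 13 for Rgs5. The log2 fold change of Alpl ran from 1.04 to 4.69 over the 14 alternatives. Its hTNFtg values were 0, 89 and 17, with the 0 in the shallow library.

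Of 7 tested endothelial and mural markers 1, the pericyte gene Rgs5, was lowered in hTNFtg (-3.38 ± 0.83; 14.3% of the list, against 3.04% of all genes), and the list summed to 108 to 201 in WT, 87 to 255 in hTNFtg and 183 to 337 with infliximab. Of 6 tested skeletal muscle markers limma called 0 in hTNFtg against WT, with 0 at an unadjusted P under 0.05. There edgeR called 1 raised (Ckm, at 0 to 4), where it raised 5.21% of all genes. The sums of the muscle markers were 17 to 66, 24 to 84 and 25 to 65. With infliximab 1 muscle marker, Tnnt3, was lowered in limma, of 6 tested against untreated hTNFtg (0.936% of all genes were lowered) and of 5 against WT (2.95%). In edgeR Ckm was lowered too against untreated hTNFtg (2.49% of all genes were) and Mylpf was raised against WT (4.40% of all genes were). Tnnt3 was at 7, 4 and 13 in WT, 12, 10 and 9 in hTNFtg and 0, 5 and 1 with infliximab. Of 7 hepatocyte markers 2 were raised in hTNFtg (28.6%, against 3.35% of all genes), Alb at 12, 6 and 1 against 0, 0 and 1 in WT and Fgb at 6, 1 and 1 against 0, and these are within a few reads. With infliximab limma called 0 hepatocyte markers against either group, with 0 at an unadjusted P under 0.05. In edgeR all 7 were called raised against both, where 1.815% of all genes were raised against untreated hTNFtg and 4.40% against WT. Without infliximab replicate 3, which held the hepatocyte genes, Col8a1 and Col7a1 were still called against WT and Col5a3 was not (0.75).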

How the data were processed

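Libraries of 3′ mRNA ends were made with the QuantSeq kit and read by Ion Proton. The authors mapped reads to mm10 with TopHat2 and the remainder with Bowtie2, counted reads per gene with GenomicRanges, removed genes with 0 counts and ran DESeq through metaseqR. Versions and the use of strand are not given in the sources used here. The deposited values carry the unit score: gene counts divided by a factor per library and rounded. In hTNFtg replicate 1 the deposited signal is large per read, and 98.4% of its values above 0 equal a whole number of reads times 1 factor once that product is rounded to an integer, with no other tolerance. The 24 other per-sample columns were not used, nor were the authors' fold changes and P values.

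Both tables hold hTNFtg replicates with the same values, counted once. The worth of 1 read was estimated from the rounded values of each library. In a check of this estimate, 8 of 9 cases came within 1%. The read numbers, the worth of 3 reads and the edgeR results rest on it and are approximate. Every gene not at 0 throughout a comparison was fitted with limma 3.58.1 (trended variance, R 4.3.3), with Benjamini-Hochberg adjustment over all genes tested. The rule for calls rests on an unadjusted P and so also calls genes that did not change. On approximate reads edgeR 4.0.16 called 1485 genes raised and 926 lowered in hTNFtg against WT. Fold changes on log2(value + 1) understate changes of low genes.

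Values per library are given for collagen genes with a mean of at least 10 that were called, for the 8 highest and for chains of the same molecule. Of other lists, up to 4 called genes per comparison with a mean of at least 10 are named, with defining markers, and a few other genes (such as Serpinh1 and Lox) for context, chosen after their values were seen. Cnmd and Snorc were matched by older symbols. Members and lists were chosen with earlier results of these data known. Promoter windows came from RefSeq (GRCm38.p6), which held 35 of the 44 genes.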

Additional observations from a re-analysis of the deposited data

How the results depend on the processing

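Alternatives were a pseudocount of 5, a filter at a mean of 10, other scalings, array quality weights, edgeR, a replicate block, all 9 libraries in 1 fit and each library left out. In hTNFtg against WT the number of lowered collagen genes was 10 with array quality weights (which lowered 4.64% of all genes, against 3.04%) and 5 to 8 with a library left out. In infliximab-treated against untreated hTNFtg SFs the raised count was 0 with the pseudocount of 5, the filter and the replicate block (0.767%, 1.42% and 1.31% of all genes). The lowered count was 3 with array quality weights (4.87% of all genes, against 0.936%), and both counts ran from 0 to 1 with a library left out. Infliximab-treated SFs against WT had 4 lowered genes of 29 tested with the filter, which tests fewer genes and lowered 3.42% of all genes. Over all genes, adjusted calls in hTNFtg against WT were 137 in limma, 922 in edgeR and 1004 with array quality weights. They were 0, 165 and 65 in infliximab-treated against untreated SFs, and 209, 1320 and 378 against WT, where the filter gave 488 and the fit of all 9 libraries 68. That fit gave 371 in hTNFtg against WT and 3 in infliximab-treated against untreated SFs.

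The log2 fold change in hTNFtg against WT turned to 0.032 for Col1a1 under quantile normalization. With a library left out it ran from -0.20 to 0.37 for Col3a1, from -0.062 to 0.73 for Col5a2 and from -0.72 to 1.17 for Col7a1, and the end that reverses it came without hTNFtg replicate 1. That of Col7a1 was also 0.046 with the pseudocount of 5, 0.91 with array quality weights, 0.77 in edgeR and 0.063 without WT replicate 1. In infliximab-treated against untreated hTNFtg SFs Col7a1 ran from -0.049 (without hTNFtg replicate 1) to 1.84. The cause was not tested.

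Pairing by replicate number was taken as given only where every same-numbered pair correlated above 0.1 in its deviations from the group means, which no comparison met. The correlations were 0.29, -0.14 and 0.35 for hTNFtg and WT, 0.10, -0.15 and 0.013 for infliximab and WT, and 0.070, 0.20 and 0.27 for infliximab and hTNFtg, where all 3 were positive and different numbers ran from -0.26 to 0.13. With the replicate block, 3 collagen genes were raised and 6 lowered in hTNFtg against WT (3.00% and 2.82% of all genes), and 2 raised and 6 lowered with infliximab against WT (3.43% and 2.58% of all genes; Col5a3 and Col9a2 lost). With the block limma left 0 calls after adjustment over all genes (2266 an unadjusted P under 0.05 in hTNFtg against WT). That fit has fewer residual degrees of freedom, and its count of 0 says nothing about the stability of the calls.

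With protein-coding genes as the denominator the mean collagen share came to 1.40% from 1.17% for WT, to 1.29% from 1.06% for hTNFtg and to 1.25% from 1.06% for infliximab-treated SFs.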
